A study of Bos taurus with 60 samples.

Results

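Between late lactation and the end of the first week of the bovine dry period, 226 of 14714 loci tested in mammary biopsies had a dip in expression: their mean level was lower 3 days after dry-off (D3) than 3 days before it (D-3), and higher again at D7. The members were chosen by measured values. Expression was taken as log2 CPM (reads of a locus relative to all reads of the library, with library sizes scaled by the trimmed mean of M values, TMM), and a locus entered when the D3 mean over 12 cows was at least 0.6 below the D-3 mean and the D7 mean at least 0.6 above the D3 mean. In all, 232 loci met both thresholds, and 6 of them (CXCL13, APLN, ANGPT2, ADIPOQ, BUB1B and SCD) were set aside by name. Every D-3, D3 and D7 value of a member below is therefore a description and carries no test. Of the 226 members, 122 had a gene symbol, 68 had an ENSEMBL gene without one, 36 had no ENSEMBL gene, and 9 joined several genes in 1 locus, whose reads cannot be told apart. Over all 14714 loci tested, 3007 had a symbol, a smaller share. Loci with a symbol are thus not a neutral sample of loci, and the counts within gene lists below hold only for genes with a symbol. Symbols came from the study's supplementary tables, which include its lists of genes called changed from D-3 to D3 and from D3 to D7. Listed genes may thus be partly preselected for change on these days, so a high share within a list is no support for a trait of its class.

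The series followed multiparous Holstein cows through the dry period, the weeks without milking before calving. Cooled cows (CL, n = 6) had shade, soakers and fans, and heat-stressed cows (HT, n = 6) had shade only. Each of the 12 cows gave a biopsy on 5 days, 3 days before dry-off (D-3) and 3, 7, 14 and 25 days after it, and the 60 RNA-Seq libraries held 20525083 to 26183990 assigned reads. Visible fat was trimmed from the tissue, and housing differed from dry-off onwards, so HT and CL cows had not yet been separated by treatment at D-3. A library of 1 biopsy is a mix of cell types, and fewer cells of a type cannot be told apart from less RNA per cell. The paper states that the part of the udder biopsied alternated between time points. It names tissue location and cell heterogeneity among possible limits. A difference between successive sampling days within a cow is thus also a difference between biopsy sites, and these cannot be told apart here.

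When milking stops, milk accumulates in the alveoli, secretory epithelial cells reduce the synthesis of casein, lactose and milk fat, and the gland enters involution. In the pregnant dairy cow this regression overlaps with renewal: mammary cells proliferate and ducts and alveoli are rebuilt before the next lactation. The genes described here include enzymes and droplet proteins of milk fat, transporters of luminal epithelium, secreted proteins of stroma and epithelium, and receptors for immunoglobulins.

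Several libraries stood apart. The D14 library of CL cow 7965 had the lowest median correlation with the other libraries of its own cow (0.82), and KRT19, a luminal keratin, was at 3.36 CPM in it against 231 to 1642 CPM in the other 11 D14 libraries. The D14 library of HT cow 8541 held ADIPOQ, an adipocyte hormone, at 313 CPM, where the median over the 12 cows that day was 13.3 CPM. At D-3, the 3 milk protein genes with a symbol (CSN1S1, CSN2 and LALBA) took 40.2% to 49.8% of reads in 5 libraries (CL cows 7965, 8564 and 8647, HT cows 8541 and 8713) and 0.190% to 8.03% in the other 7. The D14 and D25 libraries of HT cow 8513 correlated better with the earlier libraries of HT cow 8660 (mean r = 0.48 after centring by day) than with those of cow 8513 (-0.05), and the D14 and D25 libraries of cow 8660 correlated better with the earlier ones of cow 8513 (0.39) than with their own (0.13). Both cows were HT, so comparisons of HT with CL and of D25 with D14 keep the same libraries whichever way these labels stand.

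The median member was 1.07 lower at D3 than at D-3 and 0.97 higher at D7 than at D3 on the log2 scale, whereas the medians over all loci tested were 0.00 and 0.01. The smaller of the 2 steps had a median of 0.82 and reached 2.02, and it was at least 1, a halving followed by a doubling, in 63 members. At D7 the mean of 95 members was at or above the D-3 mean, 89 members had regained 50% to under 100% of the difference, and 42 had regained less than 50%. Members just inside the thresholds were ECM2 (D3 minus D-3 of -0.60, D7 minus D3 of 0.92), ENSBTAG00000045659 (-0.60, 0.63) and ENSBTAG00000021462 (-1.09, 0.60). Loci just outside were HECW2 (-0.62, 0.60), ENSBTAG00000012295 (-0.67, 0.60) and SERPINA1 (-0.59, 1.30). The thresholds therefore cut through a continuous cloud of loci, as the scatter of both differences showed. With a threshold of 0.5 there would have been 342 members, and with 0.8, 119.

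**Figure D1:**
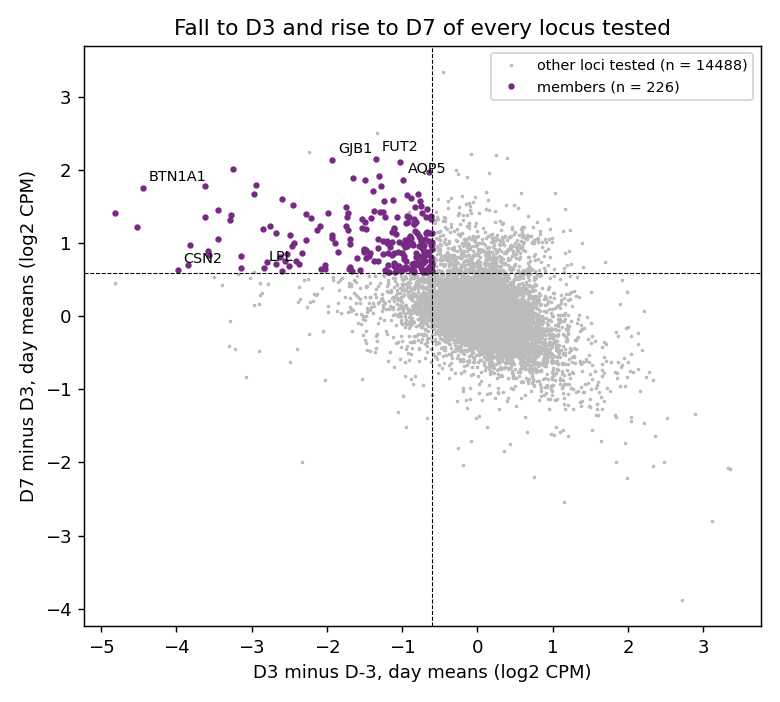
Difference of day means D3 minus D-3 (x axis) against D7 minus D3 (y axis), in log2 CPM, for the 14714 loci tested. Purple points are the 226 members, grey points the other loci, and dashed lines the thresholds of 0.6. The members fill the upper left corner, with BTN1A1 and CSN2 far to the left and GJB1 and FUT2 near the top.

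Scaling mattered for how large the fall looked. In the 5 D-3 libraries rich in milk protein reads the other genes share fewer reads, and TMM corrects for this. With library size alone, the median of all loci was 0.55 higher at D3 than at D-3, the median member was 0.59 lower, and 122 loci met the rule, 112 of them members. Relative to the median of all loci the difference of the median member was close to that with TMM, and under each of the 4 scalings compared all 226 members had a D3 mean below the D-3 mean and a D7 mean above the D3 mean.

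Cows differed widely in the dip. A median of 8 of 12 cows per member (3 to 11) were both lower at D3 than at D-3 and higher at D7 than at D3, and 40 members had at least 10 such cows. Taking the median over members within a cow, D3 was lower than D-3 by 0.36 to 2.07 in 10 cows, and the difference was under 0.01 in size in CL cow 8686 and HT cow 8513. The lowest values were those of HT cow 8713 (-2.07), CL cow 8647 (-2.01) and CL cow 8564 (-1.89), all 3 among the 5 cows with over 40% milk protein reads at D-3, whose other 2 were CL cow 7965 (-1.58) and HT cow 8541 (-1.52). The 7 cows with a lower share ranged from -1.61 in HT cow 8660 and -1.30 in CL cow 8603, over -0.97 in HT cow 8314, -0.68 in CL cow 8060 and -0.36 in HT cow 8668, to 0.00 in cows 8513 and 8686. All 5 milk-rich cows thus lay at -1.52 or lower, as did 1 of the other 7. From D3 to D7 the median over members was above 0 in all 12 cows, from 0.18 in HT cow 8668 to 1.77 in HT cow 8660. When 1 cow at a time was left out of the means, 184 to 271 loci met the rule, and 118 of the 226 members met it in all 12 of these repeats. Leaving out cow 8660 removed 55 members, the most of any cow. How far the cows' stage at D-3 or the change of biopsy site set the fall was not tested.

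**Figure D2:**
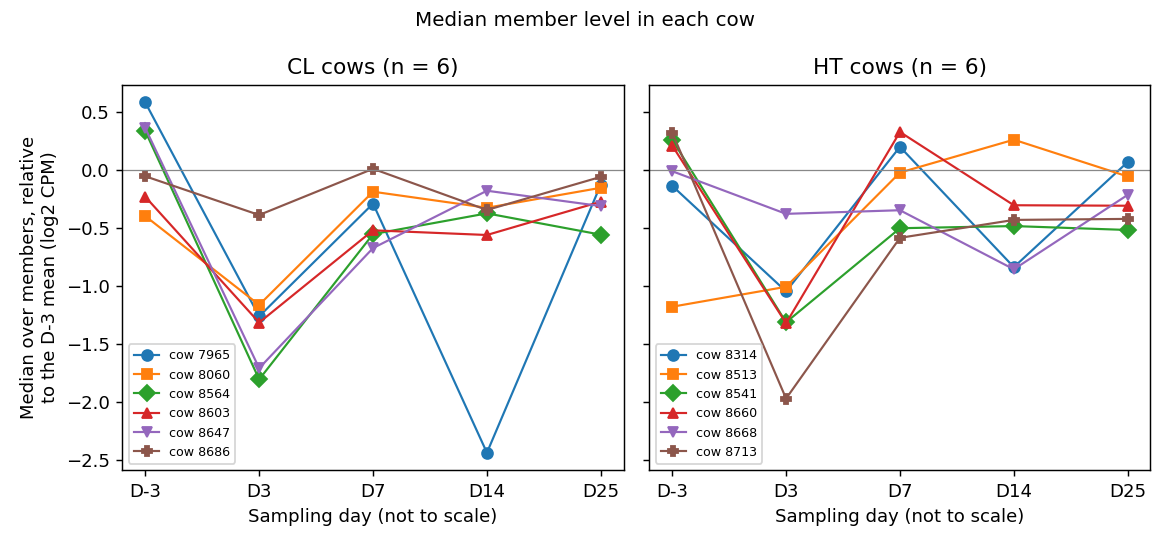
Median level over the 226 members in each cow (y axis, log2 CPM relative to the mean over the 12 cows at D-3) by sampling day (x axis), with 1 line per cow, CL cows on the left and HT cows on the right. Most lines drop at D3 and rise by D7, but several stay below their D-3 level, such as that of CL cow 8647 (0.36 at D-3, -0.67 at D7). HT cow 8513 starts low at -1.18, CL cow 8686 and HT cow 8668 stay shallow, and CL cow 7965 drops to -2.44 at D14.

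Milk fat and milk secretion genes among the members had large falls and a partial return in the means over 12 cows. BTN1A1 encodes butyrophilin, a protein of the membrane around secreted fat globules. Its level over 12 cows was 43.9, 276 and 3505 CPM (lowest, median, highest) at D-3, 3.26, 22.2 and 265 CPM at D3, and 0.524, 148 and 572 CPM at D7. Its D3 mean was 4.44 lower than D-3 and its D7 mean 1.76 higher than D3, so that 39.6% of the log2 difference was regained, and the ranges of all 3 days overlapped. CSN2, the gene of beta-casein, had medians of 21288 CPM at D-3, 2545 CPM at D3 and 9447 CPM at D7. It was far less even between cows: 5 of 12 cows showed both steps, and only 15.9% of its difference of -3.98 was regained. These percentages average over unlike cows. In the 5 cows rich in milk protein reads at D-3, BTN1A1 was at 1673 to 3505 CPM at D-3 and 0.524 to 153 CPM at D7. In the other 7 it was at 43.9 to 285 and 12.4 to 572 CPM. CSN2 was at 506631 to 767576 and 31.2 to 12205 CPM in the milk-rich cows, and at 827 to 34225 and 307 to 80739 CPM in the others. Of the 14 milk protein and secretion genes with a symbol, all 14 were at least 0.6 lower at D3 and 5 were at least 0.6 higher at D7, namely CSN2, BTN1A1, PLIN2, FABP3 and GPAM; the medians over the list were -2.49 and 0.37.

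The fatty acid genes among the members span uptake, synthesis, esterification and storage. LPL, the lipase that frees fatty acids from blood lipoproteins, had medians of 179, 59.1 and 75.7 CPM at D-3, D3 and D7. In HT cow 8513 it went from 75.1 CPM at D3 to 657 CPM at D7. The other cows had 35.5 to 118 CPM of LPL at D7, so part of its rise lay in cow 8513. FASN, the enzyme that builds fatty acids, had 4071, 838 and 929 CPM, and the mean regained 30.4% of its difference of -2.37. The D3 and D7 medians of FASN were thus close, and 5 of 12 cows showed both steps. GPAM catalyses the first step of triglyceride assembly, and its medians were 828 CPM at D-3, 208 CPM at D3 and 493 CPM at D7, with both steps in 10 of 12 cows. PLIN2 coats lipid droplets, and its medians of 842, 238 and 433 CPM gave differences of -1.85 and 0.89. FABP3 carries fatty acids within the cell and had medians of 118, 13 and 35.7 CPM. G0S2, an inhibitor of triglyceride breakdown, had 14.3, 2.83 and 7.74 CPM, and TMEM120B, listed with fat storage, had 329, 78.6 and 142 CPM. At D7 the mean of each of these 7 genes was below its D-3 mean, and at D25 the means of LPL, FABP3, FASN, GPAM, PLIN2, G0S2 and TMEM120B were still 0.97 to 3.15 below D-3.

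Adipocytes and secretory epithelium both use many of these genes, so the lists overlap. Of the 15 adipocyte and fat storage genes with a symbol, 13 were at least 0.6 lower at D3 and 7 at least 0.6 higher at D7, 5 of them members and 2 (ADIPOQ and SCD) set aside by name. The summed level of the list ranged from 2312 to 52465 CPM at D-3, 1251 to 5283 CPM at D3, and 1453 to 10702 CPM at D7. ADIPOQ, a defining gene of adipocytes, had medians of 13.7 CPM at D-3, 5.43 CPM at D3 and 18.7 CPM at D7, and FABP4, another adipocyte gene, 136, 48.1 and 74.9 CPM. The part of fat left in the biopsies in the values of lipid genes was not tested. Genes of cholesterol synthesis are a contrast: 13 of 17 were at least 0.6 lower at D3, none was 0.6 higher at D7, and none was a member.

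Across cows within a group, members differed in the gene classes they correlated with. The counts below have no share over all loci beside them, so they do not show whether members differ from other loci. Each level was centred on the mean of its treatment and day, which leaves 60 points from 12 cows that share depth and biopsy composition, so the correlations are descriptions. A member was left out of any list mean it was compared with. With the mean of the 3 milk protein genes, 47 members had r above 0.5, among them FABP3 (0.91), BTN1A1 (0.86), TFF3 (0.69) and LPL (0.67). These 47 had a median difference of -2.56 from D-3 to D3, regained a median of 37.4% by D7, and none had a D7 mean at or above its D-3 mean. The 178 members with r between -0.5 and 0.5 had a median of -0.95, regained a median of 104%, and 94 of them were at or above the D-3 mean at D7. The D-3, D3 and D7 libraries entered both the correlations and these differences. A member high in the milk-rich D-3 libraries can thus have both a high r and a large fall, and the contrast is no independent trait of the 47. With the mean of 95 mitosis genes, 22 members had r above 0.5, led by HS3ST1 (0.74, picked after its values were seen), and these regained a median of 147%. Another 20 members had r below -0.5 with it. With the matrix list more members, 24, had r below -0.5 than above 0.5, and the median r over members was -0.27. The 12 members with r above 0.5 included TMEM35 (0.82), ECM2 (0.69), OGN (0.68), MCAM (0.59) and OMD (0.57). The D14 library of cow 7965, the one nearly without KRT19, held that list at 16970 CPM in sum, where no other library passed 5096 CPM, and without this library 6 members were left: TMEM35 was at 0.77, ECM2 at 0.55 and OGN at 0.54, and MCAM (0.45) and OMD (0.43) were below 0.5. The same library moved the mitosis set from 22 to 32 members and left the milk protein set at the same 47.

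**Figure D3:**
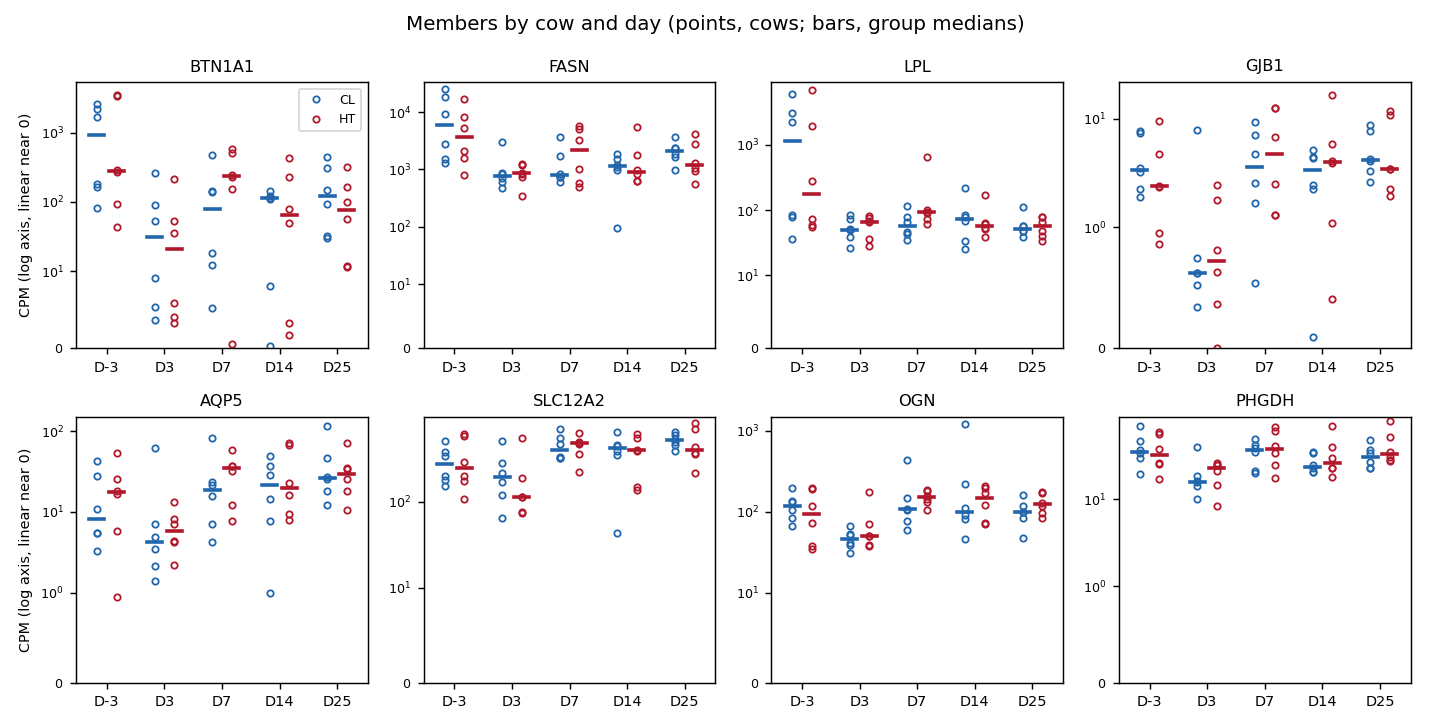
CPM (y axis, log scale, linear near 0) of 8 members by sampling day (x axis). Points are cows, blue for CL and red for HT (6 each), and bars are group medians. Over all cows, the D7 medians of BTN1A1, FASN and LPL are below their D-3 medians. Those of GJB1, AQP5, SLC12A2, OGN and PHGDH are above theirs. For each gene the D-3 and D7 ranges overlap.

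Among members with a symbol the largest dip belonged to an epithelial gap junction gene. GJB1, connexin 32, was at 0.859, 2.85 and 9.60 CPM (lowest, median, highest) at D-3, 0, 0.630 and 7.90 CPM at D3, and 0.544, 3.63 and 12.7 CPM at D7. Its differences of day means were -1.93 and 2.14, and the D3 range was set by 1 CL library at 7.90 CPM. FUT2 adds fucose to glycans of secreted proteins, and its medians were 1.40, 0.376 and 2.60 CPM. RHBG, an ammonium transporter of epithelia, was at medians of 20.2, 10.5 and 22.0 CPM and showed both steps in 10 of 12 cows. These 3 genes ended at or above their D-3 mean at D7, by 0.21, 0.81 and 0.14.

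Transport of salt and water was also represented, by a pair of members picked after their values were seen. AQP5, an apical water channel, had medians of 13.8, 4.62 and 22.4 CPM at D-3, D3 and D7, and its level at D7 was above that at D3 in all 12 cows. SLC12A2, the sodium, potassium and chloride cotransporter NKCC1, had 247, 144 and 476 CPM. Both overshot: D7 means were 0.87 and 0.67 above D-3, and at D25 they were 1.38 and 0.83 above it.

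Several of the 20 members with a symbol and the largest dips encode secreted proteins. The locus joining BDA20, a lipocalin known as a dander allergen, and MGC151921 was at a median of 131 CPM at D-3, 26.7 CPM at D3 and 53.8 CPM at D7, with both steps in 10 of 12 cows. SCGB1D, a secretoglobin, and LOC785756, named androgen binding protein beta-like, had both steps in 10 cows as well. SCGB1D regained 95.5% of its difference of -1.42, and LOC785756 61.9% of -2.60. HHIPL2 went from a median of 117 CPM to 16.2 and 30.8 CPM at D3 and D7. SPADH1, a spermadhesin, and ITIH2, a hyaluronan-binding inhibitor subunit, differed by -2.75 and -2.10 at D3 and regained 44.8% and 58.8%. The other genes among the 20 largest dips were PLA2G3, a secreted phospholipase (-2.94 and 1.81), MFSD2A, a lipid transporter (-2.97 and 1.68), CNGA1, a cyclic nucleotide-gated channel (-3.29 and 1.32), SLC25A35, a mitochondrial carrier (-1.54 and 1.21), NCKAP5 (-1.47 and 1.2) and RNASE2. TFF3, a trefoil peptide of mucosal secretions and the only member among 8 genes listed for hormone-sensing epithelium, went from a median of 69.9 CPM at D-3 to 13 CPM at D3 and 35 CPM at D7, and its D25 mean was 0.36 below D-3. Some members are scarce: RNASE2, an eosinophil-type ribonuclease, was at 0 CPM in at least 1 library on each of the 5 days, and 41 of the 226 members had a median under 1 CPM at D-3.

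Immunoglobulin receptors were among the members. The locus joining FCGR2B and FCGR2A, IgG receptors of leukocytes, was at 565, 1483 and 5672 CPM at D-3, 81.5, 654 and 6287 CPM at D3, and 262, 1009.5 and 8522 CPM at D7. It was the only member among 5 macrophage, dendritic cell and neutrophil genes with a symbol. That list had medians of 0.17 from D-3 to D3 and -0.11 from D3 to D7. In the D14 library of CL cow 7965, nearly without KRT19, the locus of FCGR2B and FCGR2A was at 57.9 CPM. The other D14 libraries held it at 351 to 5496 CPM, and the cell type behind these reads was not tested. FCAMR, a receptor for IgA and IgM, went from a median of 48.4 CPM to 7.01 and 16.8 CPM and had r = 0.72 with the milk protein genes.

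Most of the growth factor and stroma members were back at or above their D-3 mean at D7. MSTN, myostatin, an inhibitor of muscle growth of the transforming growth factor beta family, had medians of 12.0, 3.84 and 18.8 CPM, and both steps occurred in 10 of 12 cows. NRG2, a ligand of ErbB receptors, had 2.64, 0.892 and 4.11 CPM, also with both steps in 10 cows. These were the 2 members among 8 growth factor and morphogen genes with a symbol. OGN, OMD and ECM2 encode leucine-rich proteins of the matrix. OGN had medians of 110.2, 50.1 and 137 CPM, OMD 4.32, 1.03 and 2.5 CPM, and ECM2 178, 117 and 210.1 CPM. In the fibroblast and matrix list OGN was the only member of 8, and the list had medians of 0.14 from D-3 to D3 and 0.53 from D3 to D7. Vessel wall genes were few: MCAM and COX4I2 of 11 pericyte, smooth muscle and myoepithelium genes, and ANGPT1, a ligand that stabilises vessels, of 11 endothelial genes. MCAM was higher at D7 than at D3 in 12 of 12 cows, with medians of 60.9, 33.4 and 58.7 CPM.

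Serine and cysteine synthesis supplied 3 members of 18 genes in the amino acid list. PHGDH, the first enzyme of serine synthesis, had medians of 35.7, 17.5 and 37.2 CPM and regained 98.2% of its difference of -0.97. CTH and CBS, which convert homocysteine to cysteine, differed by -1.17 and -1.18 at D3 and by 0.95 and 0.61 at D7. ALDOC, a glycolytic aldolase and the only member of 5 hypoxia and glycolysis genes, had medians of 122, 29.2 and 40.04 CPM.

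Cell cycle genes mostly followed another course. Of 95 mitosis and DNA replication genes with a symbol, 86 were at least 0.6 higher at D7 than at D3, but 5 were at least 0.6 lower at D3 than at D-3, and the list median from D-3 to D3 was 0.36. The 3 members were CENPN (medians of 10.1, 3.62 and 6.75 CPM), SHCBP1 (15.1, 6.11 and 12.1 CPM) and CLSPN (19.0, 11.4 and 17.5 CPM). CCND1 and CDC25A, both regulators of the G1 phase that were picked after their values were seen, had D3 minus D-3 of -0.62 and -1.18. Within groups, CENPN, SHCBP1, CLSPN and CDC25A correlated at 0.07, 0.09, 0.11 and -0.42 with the mitosis list. With the milk protein genes these genes were at 0.44, 0.43, 0.38 and 0.69. CCND1 went the other way, at 0.55 with the mitosis list and -0.46 with the milk protein genes. No member was found among the listed genes with a symbol for B and plasma cells (1 gene, set aside by name), T and NK cells (1), Schwann cells and nerve (5), heat shock and protein folding (6), the circadian clock and immediate early response (9), the interferon response (5), skeletal muscle (2), red blood cells (1) or histones (5). These short lists, like the longer ones, hold only the genes that could be paired with a symbol, so no count here is a share of a whole gene class.

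After D7 the means of most members stayed above their D3 mean, but members were chosen for a low D3 mean, which by itself favours higher means on other days. The D14 mean was above the D3 mean in 218 of 226 members and the D25 mean in 223, against 51.9% and 55.7% of all loci. The median member was 0.13 below D-3 at D7, 0.36 below at D14 and 0.12 below at D25, as the plot of day means showed. At D25, 98 members were at or above the D-3 mean and 128 below it.

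**Figure D4:**
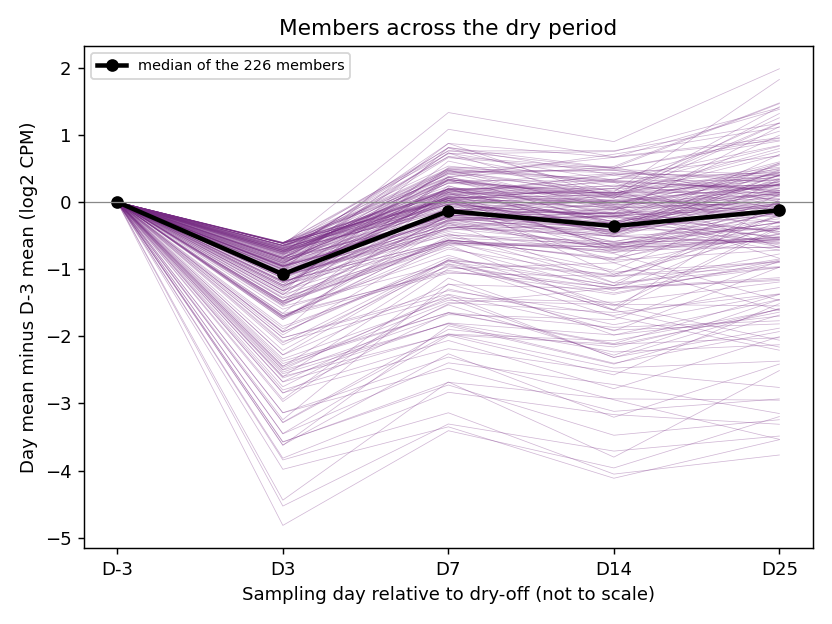
Day mean minus D-3 mean (y axis, log2 CPM, 12 cows per mean) for each of the 226 members (thin lines) and their median (black) by sampling day (x axis, not to scale). The median drops to -1.07 at D3 and is -0.13 at D7, -0.36 at D14 and -0.12 at D25, while the lowest lines stay more than 3 log2 units below D-3.

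The comparison of D25 with D14 used samples that did not enter the day means of the rule. With edgeR's quasi-likelihood test over all loci, 9 loci (0.0612%) passed a false-discovery rate (FDR) of 5%, none of them a member, and DESeq2 also called no member. With tagwise dispersions edgeR called 1 member, ENSBTAG00000011666, whose value is that of 1 library as given below. At an unadjusted p under 0.05 there were 13 members, 5.75% of them, against 3.63% of all loci, and 3 of the 13 were higher at D25 and 10 lower. Over all members the balance was the other way. The fitted log2 fold change was above 0 in 151 of 226 members, with a median of 0.16, against 0.01 over all loci, 0.06 over the 630 loci that were lower at D3 without the rise at D7, and -0.32 over the 245 loci with the opposite course. Part of the shift lay in 1 library: the median within CL cow 7965 was 2.16, the other cows ranged from -0.23 to 0.96, and the median was above 0 in 8 cows and below 0 in 4. Without the D14 library of cow 7965 the median over members was 0.10 and no member was called. With the cow as a block the median was 0.11, again with no member called.

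The 3 members with the smallest p for D25 against D14 each depended on 1 library. ENSBTAG00000011666 was at 0.123 to 110.4 CPM at D14 and 0.266 to 2.07 CPM at D25, and the highest value was that of cow 8541, whose D14 library was the one with high ADIPOQ. Its log2 fold change was -3.504 ± 0.84 (SE; edgeR FDR = 0.0819), but 3 of 12 cows were higher at D25, the exact sign-flip p was 0.69, and without cow 8541 the fold change was 0.00. ENSBTAG00000020105 (-3.63 ± 0.97, edgeR FDR = 0.187) peaked at 26.4 CPM in the same library, and without that cow it was -0.48. For ENSBTAG00000013662 (-2.75 ± 0.79, edgeR FDR = 0.294) the highest value, 231 CPM, was in the D14 library of cow 7965, and without that library it was -0.65. Another difference was that of LOC540707, a cytochrome P450 2A13 gene chosen after its values were seen. It was at 0, 0.730 and 2.38 CPM at D14 and 0.568, 2.05 and 13.4 CPM at D25, was higher at D25 in 10 of 12 cows, and had a fold change of 1.69 ± 0.58 with edgeR FDR = 0.64 and an exact sign-flip p of 0.0039. Its lowest D14 value and its highest D25 value were both those of CL cow 7965, so part of this fold change also lay in that cow.

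Whether cooling altered these genes was asked by comparing HT with CL at each day, a contrast the rule did not use. The D-3, D3 and D7 libraries did enter the rule through means pooled over both treatments, and 157 of the 226 members met it over the CL cows alone and 164 over the HT cows alone. Members that met it through 1 treatment are thus partly chosen for a difference between treatments at those days, and the values below are to be read with that limit. No member and none of the other loci passed FDR of 5% at any day in edgeR with trended dispersions (0% of loci each). With tagwise dispersions, which the study's methods name, edgeR called 2 members at D7, KIF25 and ENSBTAG00000038461, and 1 at D-3, EDIL3. The share of all loci called with tagwise dispersions is not given here, so these counts do not set members apart from other loci. At an unadjusted p under 0.05 30 members were found on D7 (4.61% of all loci), 15 on D25 (2.25%), 9 each on D-3 (2.02%) and D14 (1.69%), and 8 on D3 (0.659%). DESeq2 called the same 2 members at D7, among 3 loci in all, and no member at the other days. Of the 30 members at D7, 13.3% of all 226, 27 were higher in HT, and over all members the median log2 fold change at D7 was 0.22, with 147 of 226 above 0, against a median of 0.00 over all loci. Leaving out 1 cow at a time gave medians over members at D7 of 0.11 to 0.35. The 630 loci without the rise had a median of 0.28 and the 245 loci with the opposite course 0.16, so a positive median at D7 was not particular to the members. On the other days the medians over members were -0.15 (D-3), -0.04 (D3), 0.06 (D14) and 0.02 (D25). Milk protein genes took 0.0628% to 1.96% of reads in CL libraries at D7 and 0.00669% to 14.5% in HT libraries, and their part in the shift at D7 was not tested.

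With a looser threshold, an unadjusted p of 0.005 or less and an absolute log2 fold change of 0.5 or more, 7 members were found at D7 among 50 loci (0.340% of all loci). KIF25, a kinesin, was at 2.52, 3.72 and 5.33 CPM (lowest, median, highest) in CL cows and 5.17, 9.14 and 19.3 CPM in HT cows. Its fold change was 1.42 ± 0.31 (SE; edgeR FDR = 0.96 with trended and 0.033 with tagwise dispersions), the groups overlapped by 1 CL cow and 1 HT cow, and the exact permutation p was 0.0043. At D-3 the ranges of KIF25 were 6.27 to 34.0 CPM in CL and 3.76 to 32.1 CPM in HT. ENSBTAG00000038461 was at 0.230, 0.403 and 1.504 CPM in CL and 1.27, 2.03 and 7.11 CPM in HT, a difference of 2.40 ± 0.55 (edgeR FDR = 0.96 with trended and 0.040 with tagwise dispersions, exact permutation p = 0.0043). All 6 HT cows lay above the CL median for both.

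Another 2 of the 7, BDH1 and LOC786474, went with fat and milk genes across cows more closely than KIF25. BDH1, a ketone body dehydrogenase, was at 2.17, 2.30 and 3.503 CPM in CL and 2.38, 5.58 and 18.1 CPM in HT at D7, a fold change of 1.73 ± 0.47 (edgeR FDR = 0.96, exact permutation p = 0.011). The locus LOC786474, chosen after its values were seen, joins a gene named as a patatin-like phospholipase with a second ENSEMBL gene, and their reads cannot be told apart. It was at 3.31, 4.69 and 29.4 CPM in CL and 4.68, 32.6 and 300.5 CPM in HT, and its fold change was 3.17 ± 0.93 (edgeR FDR = 0.96, exact permutation p = 0.035). Within groups their correlations with the fat storage list were 0.82 each, and with the 3 milk protein genes 0.71 and 0.78. At D-3 both were high only in the 5 libraries with over 40% milk protein reads, where BDH1 was at 68.1 to 133 CPM and LOC786474 at 838 to 2753 CPM.

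EDIL3, a matrix protein of vessels, had lower values in HT cows already before the treatments began. At D-3 it was at 14.0, 24.4 and 29.6 CPM in CL and 3.75, 8.57 and 12.8 CPM in HT, and it was the 1 member whose groups did not overlap that day (0.0544% of all loci). The fold change was -1.44 ± 0.30 with edgeR FDR = 0.999995 with trended and 0.038 with tagwise dispersions, and an exact permutation p of 0.0022, the smallest that 6 against 6 cows allow. It was -1.11 ± 0.32 at D7 and -0.76 ± 0.26 at D14, with edgeR FDR of 0.96 and 0.9981. CXCL12, a chemokine chosen after its values were seen, was at 262, 407 and 436 CPM in CL and 433, 525 and 647 CPM in HT at D7, a fold change of 0.55 ± 0.16 (edgeR FDR = 0.96, exact permutation p = 0.0043). ENSBTAG00000045659 (4.31 ± 1.27, edgeR FDR = 0.96) was under 0.2 CPM in all 6 CL cows and above 1 CPM in 2 HT cows. No member had HT and CL ranges apart at D7, against 0.143% of all loci.

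**Figure D5:**
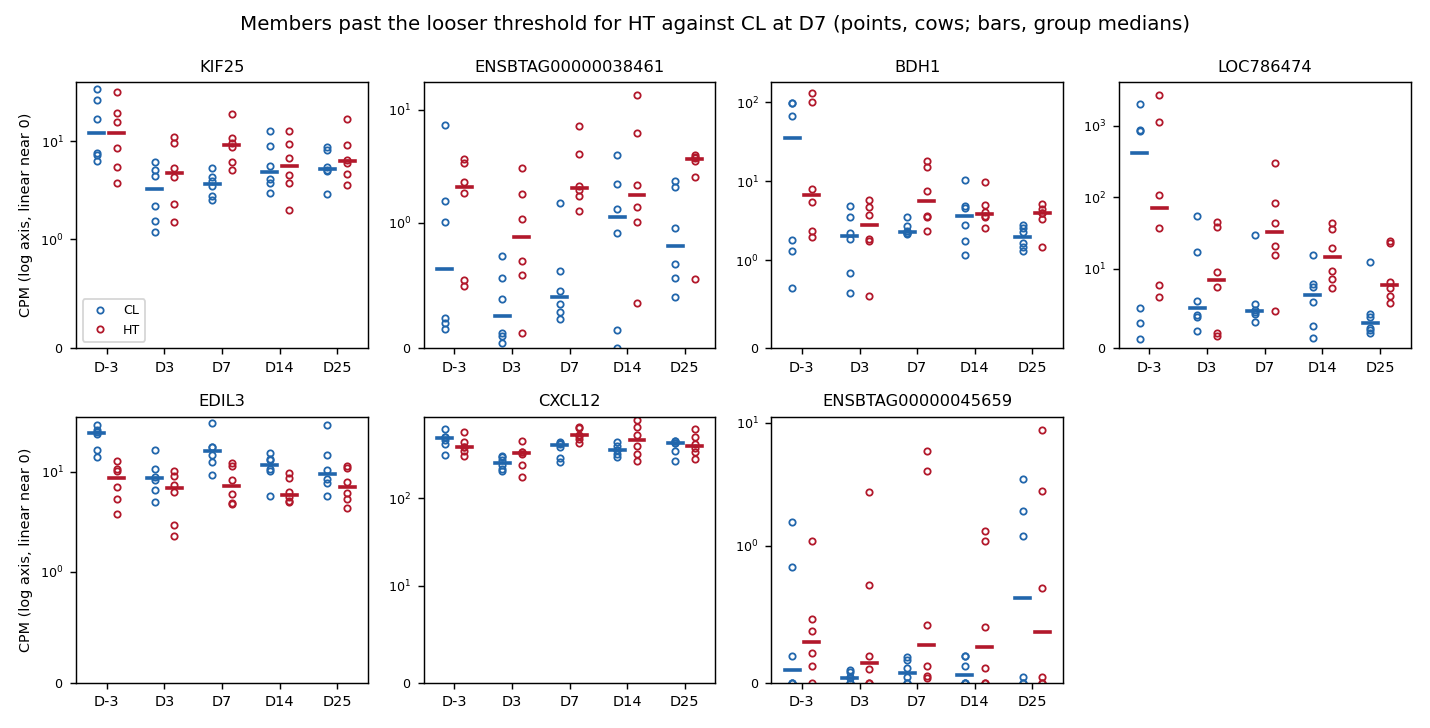
CPM (y axis, log scale, linear near 0) of the 7 members past the looser threshold for HT against CL at D7, by sampling day (x axis). Points are cows, blue for CL and red for HT (6 each), and bars are group medians. At D7 all but EDIL3 are higher in HT, and the HT median of EDIL3 is below the CL median on all 5 days.

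The looser count depended on single cows. Without CL cow 7965 or 8060 it was 2 members, without CL cow 8603 or HT cow 8713 it was 3, and without HT cow 8513 or 8660 it was 4. KIF25 and ENSBTAG00000038461 were among the members found in all 12 of these repeats, BDH1 in 5 and CXCL12 in 2.

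At the other days the members with the smallest p were scattered. At D-3 they were EDIL3, LVRN, a membrane aminopeptidase (-0.76 ± 0.26), and the locus joining ENSBTAG00000014220 and ENSBTAG00000047646 (-0.97 ± 0.36). At D3 they were ENSBTAG00000045659, ENSBTAG00000020105 and SLC28A1, a nucleoside transporter that was higher in HT by 1.83 ± 0.71 (edgeR FDR = 0.9999). At D14, ENSBTAG00000012393 was at 0.144, 2.90 and 7.07 CPM in CL and 4.61, 10.8 and 22.2 CPM in HT (exact permutation p = 0.0087, edgeR FDR = 0.9981), next to ENSBTAG00000011666 and EDIL3. At D25, ENSBTAG00000023270 was at 0.0812, 4.22 and 5.70 CPM in CL and 5.37, 13.1 and 24.2 CPM in HT (exact permutation p = 0.0043, edgeR FDR = 0.9976), ENSBTAG00000004145 was lower in HT by 1.71 on the log2 scale, and BDH1 was higher by 0.88 ± 0.30.

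No difference between treatments in the fall or the return passed the test, with trended or tagwise dispersions. The interaction of treatment with D3 minus D-3 gave no call in edgeR or, for members, in DESeq2 (0% of loci), with 1 member at an unadjusted p under 0.05 (0.924% of all loci). The interaction with D7 minus D3 gave no call either (0% of loci), with 2 members at that p (0.306%) and 1 locus, no member, in DESeq2. The smallest p for the fall was that of FGF12, whose CL median went from 2.55 to 0.815 CPM and HT median from 1.81 to 1.37 CPM, an interaction of 1.51 ± 0.52, ahead of TMEM35 (0.98 ± 0.51) and ENSBTAG00000047482 (1.24 ± 0.67). For the return it was FCAMR, with CL medians of 9.87 and 6.15 CPM and HT medians of 6.39 and 30.6 CPM at D3 and D7 (3.51 ± 1.36), ahead of MFSD2A (2.36 ± 1.16) and KRT24 (3.46 ± 1.85). Over all members the median interaction was 0.12 for the fall and 0.27 for the return, against 0.01 and -0.01 over all loci and 0.13 and 0.27 over the 630 loci that were lower at D3 without the rise.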

How the data were processed

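The authors deposited raw read counts per locus for each of the 60 libraries. Per the labels and the submitters' processing notes, reads were trimmed with Trim Galore 0.4.1, aligned with TopHat2 2.0.13, assembled with Cufflinks 2.2.1 and counted with HTSeq. A locus was kept where 6 or more samples reached 1 CPM. A locus listed under several genes carries the same count for each and was used once. Levels are CPM per TMM-scaled library, and log2 CPM used a prior count of 2. Comparisons used the quasi-likelihood F-test of edgeR 4.0.16 (R 4.3.3) with trended dispersion (the study's methods name tagwise dispersions, run as an alternative) and Benjamini-Hochberg adjustment over all loci: HT against CL from the 12 samples of a day, the interactions and D25 against D14 from all 60 samples. Single members had an exact permutation test over the 924 choices of 6 from 12 cows, or a sign-flip test over 4096 sign changes, two-sided, on log2 CPM. The steps were tested on simulated data. Cow numbers in the labels pair the samples across days, since the same cows were biopsied, though the biopsy site in the udder alternated. The members and gene lists were chosen with earlier results of these data known. Gene symbols came from the study's supplementary tables, which pair 3007 of the 14714 tested loci, so the lists are incomplete. Those tables include the study's own lists of genes called changed between D-3, D3 and D7. Members had a symbol more often than all loci, so a share within a list can differ from the share over all its genes. Named members are those in a list, the 20 with a symbol and the largest dip (the smaller of fall and rise), the 3 with the smallest p in each test and the 3 loci on each side of the threshold; others are said to be chosen after their values were seen. Alternatives were RLE factors, library size only, TMM without milk protein genes, other prior counts, filters and thresholds, DESeq2 1.42.0, the cow as a block and each cow left out; tagwise dispersions, exchanged labels of cows 8513 and 8660 and the loss of 1 library, also for correlations, were added after seeing the data. The 6 cows of a group are separate animals, and libraries held 20525083 to 26183990 counts. Builds differed between the sources (UMD3.1 in the labels, bosTau7 in the methods), so no coordinates are given, and sequences were not used here.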

Additional observations from a re-analysis of the deposited data

Results flagged for a closer look

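In 70 groups of 6 cows (the median member level, the milk protein share and the CPM of KIF25, BDH1, EDIL3, LOC786474 and CXCL12), 9 samples lay far from the other 5, their gap to the nearest sample exceeding Dixon's 95% critical share of the group's range. For independent and normally distributed values, about 1 in 20 groups is flagged by chance. CPM values are skewed and the groups share cows, so the rate to set beside these 9 is not known. The median member level was -1.18 in HT cow 8513 at D-3, where the nearest HT cow was at -0.14, and -2.44 in CL cow 7965 at D14, where the nearest CL cow was at -0.56. The milk protein share was 14.5% in HT cow 8513 at D7, next to 4.24%, and 1.70% in CL cow 8686 at D25, next to 0.768%. BDH1 was at 9.90 CPM in HT cow 8513 at D14, next to 4.97 CPM. LOC786474, a locus of 2 joined genes, had 4 such samples: at 54.2 CPM in CL cow 8647 at D3, at 29.4 CPM in CL cow 8564 at D7, at 300.5 CPM in HT cow 8513 at D7 and at 12.3 CPM in CL cow 8564 at D25. For the last 3 the nearest values in the group were 5.59, 82.99 and 4.28 CPM. No member passed FDR of 5% for a difference between treatments in the fall or the return.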

How the results depend on the processing

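Membership was 225 loci with RLE factors, 226 without the milk protein genes in the TMM factors, 259 with a prior count of 0.5, 253 with at least 1 count in total, 160 with at least 5 CPM in at least 6 samples, 246 over CL cows only, 325 over HT cows only and 253 with day medians. It was 122 with library size only, 342 at a threshold of 0.5 and 119 at 0.8, and 184 to 271 when each cow was left out. Means over CL cows shared 157 loci with the members and means over HT cows 164. For HT against CL the count of members at FDR of 5% was 0 when each cow was left out, at each day. The looser threshold gave 1 member at D-3, of 8 loci in all, and 7 at D7, of 50. DESeq2 called 2 at D7, of 3 loci in all. Tagwise dispersions called 2 at D7 and 1 at D-3 (EDIL3). The tagwise counts, and the looser counts under the alternatives below, have no share over all loci beside them. The looser count at D7 was 4 with the filter of 5 CPM, 13 with DESeq2, 2 with all 60 samples in 1 fit, 17 with tagwise dispersions and 2 to 9 when each cow was left out, and the median over members at D7 was 0.11 to 0.35. For D25 against D14, tagwise dispersions called 1 member (ENSBTAG00000011666), whose fold change was -3.79 to 0.00318 when each cow was left out, the last without cow 8541, and the median over members was 0.08 to 0.22 when each cow was left out. With the cow as a replicate block 0 members were called for D25 against D14 and for both interactions, with a median for D25 against D14 of 0.11, or 0.13 with the labels of cows 8513 and 8660 exchanged. The block changed no call. The cause of these shifts was not tested. Loci near 1 CPM rest on few reads, and 6 cows per group set the spread behind each comparison of treatments.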
